A study of Mus musculus with 24 samples.

Results

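Open chromatin of resting macrophages with and without the aryl hydrocarbon receptor (AhR) was compared in 12 of the 24 ATAC-seq libraries of the series, chosen as the 6 columns named AhR-KO unstimulated and the 6 named WT unstimulated in the deposited counts. ATAC-seq reads out where a transposase can reach the DNA. Cells were bone marrow-derived macrophages (BMDMs) of wildtype C57/B6/J mice or of mice of the strain B6.129-Ahr tm1Bra/J, which lack a functional Ahr gene in every tissue. Both groups were grown in GM-CSF at 10 ng/ml and TGF-β at 2 ng/ml with 10% serum, a culture meant to resemble macrophages of the lung alveoli. Per the paper, its experiments used young adult mice of both sexes, matched for age and sex, with 6 animals per group here. It does not give the sex of the animals behind these libraries. For all libraries alike the labels describe LPS at 97 EU/ml on day 6, 24 h later followed by the calcium ionophore A23187 at 5 µM for 10 min. Only the group name therefore sets unstimulated cultures apart, and whether these received the ionophore is not separated there. As the strain name states, the disrupted allele came from the 129 strain, and the 20 Mb on either side of Ahr on chromosome 12 were therefore kept apart from the rest of the genome (the Ahr region).

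AhR is a transcription factor of the bHLH-PAS family that rests in the cytosol with chaperones, enters the nucleus when it binds small ligands such as tryptophan metabolites, pairs with ARNT and binds DNA at the letters GCGTG. Its classical targets are enzymes of xenobiotic metabolism (Cyp1a1, Cyp1b1) and its own feedback inhibitors, the repressor Ahrr and the ADP-ribosyltransferase Tiparp. Alveolar macrophages depend on GM-CSF, TGF-β and the nuclear receptor PPARγ, handle surfactant lipids and release eicosanoids, the prostanoids and leukotrienes made from arachidonic acid. The comparison asked how chromatin of resting cells differs when AhR is absent.

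Each of the 12 libraries had between 8.54 and 25.7 M (mega) counts inside peaks, with a median of 22.4 M, and WT replicate 5 was the shallowest. Of 184158 consensus peaks, 174193 passed the filter on low counts and were tested, of which 171956 lay outside the Ahr region. The first principal component of the 12 libraries held 57.3% of their variance and had the 6 WT libraries on one side and the 6 AhR-KO libraries on the other. On the second, with 9.70%, WT replicate 5 stood apart from the other 11. The X chromosome held 2.01 to 2.12% of the counts in every library, and the Y chromosome held 0.0226 to 0.0275% except in WT replicate 6, with 0.0118%. Levels below are CPM, counts per M of the normalized library total, and fold changes are AhR-KO over WT.

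Macrophage markers were accessible in both genotypes. The promoter peaks of 6 of 8 general macrophage markers summed to 124 to 144 CPM in WT and to 146 to 186 CPM in AhR-KO. For alveolar macrophage markers, of which 7 of 8 had a promoter peak, the sums were 97.6 to 117 CPM and 122 to 150 CPM. Among other cell types the genotypes were also apart: the 4 promoter peaks of 3 of 8 mast cell and basophil markers summed to 20.8 to 27.2 CPM in WT and 14.5 to 17.2 CPM in AhR-KO, while the defining Fcer1a, Cpa3, Mcpt8 and Cma1 had no promoter peak. Most of this difference lay at Kit, with means of 11.1 CPM in WT and 4.79 CPM in AhR-KO. The means were 9.13 and 8.05 CPM at Gata2 and 3.43 and 3.35 CPM at Hdc. Neutrophil marker promoters summed to 33.03 to 47.9 CPM in WT and 36.1 to 40.3 CPM in AhR-KO, with Ly6g, Mpo, Elane and Retnlg at 0 promoter peaks. The sums for dendritic cells were 47.0 to 62.4 CPM and 52.7 to 61.7 CPM, with Xcr1, Clec9a and Cd209a at 0 promoter peaks. Further lists gave 11.5 to 13.5 CPM against 9.25 to 11.4 CPM for B cells (3 of 8 markers), 31.1 to 33.7 CPM against 25.2 to 28.1 CPM for erythroid cells (4 of 8) and 58.1 to 62.8 CPM against 73.7 to 88.4 CPM for osteoclasts (4 of 8). The single T and NK cell promoter peak, at Klrb1c, held 14.9 to 17.7 CPM in WT and 18.7 to 24.0 CPM in AhR-KO. In bulk cultures, fewer cells of a type and less accessible DNA per cell cannot be told apart, and the part of these shifts in the results below was not tested.

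Outside the Ahr region, AhR-KO chromatin had lost accessibility at 21580 peaks and gained it at 17067 peaks. A peak was counted as a differentially accessible region (DAR) when its edgeR adjusted p was at most 0.05 and it differed at least 1.5-fold. Lower DARs were 12.5% and higher DARs 9.93% of the 171956 peaks tested, 22.5% in both directions, and the median log2 fold change of all of them was −0.02. The 6 libraries of one genotype all lay beyond the 6 of the other at 11.2% of peaks in the lower and 9.78% in the higher direction. The split between lower and higher turned with the scaling, since lower DARs were 55.8% of all DARs here and 48.2% with DESeq2-type size factors, so the numbers of DARs in each direction are not read as a net loss. Without WT replicate 5 there were 22385 lower and 17568 higher DARs.

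The sizes of the losses and gains were unequal. At least 8-fold losses were found at 738 peaks and 8-fold gains at 2, and between 4- and 8-fold there were 2431 losses and 174 gains, while between 1.5- and 2-fold gains were more numerous (11456 against 10164). Across every scaling, filter and left-out library tried, 427 (at equal depth) to 862 (without WT replicate 5) peaks fell at least 8-fold and 1 to 5 rose as much. Lower DARs had a median of 1.99 CPM in WT, close to the 1.97 CPM of peaks that were no DAR, and 0.836 CPM in AhR-KO, against 1.93 CPM. They had a median width of 489 bases, at a median of 32.1 kb from the nearest transcription start site (TSS). In the authors' own peak lists, called per library, 56.5% of the lower DARs were called in no AhR-KO library, against 28.9% of peaks that were no DAR. All 6 WT and no AhR-KO library had a call at 637 lower DARs, and at 10 of the 133309 peaks that were no DAR. Conversely 692 higher DARs were called in all 6 AhR-KO and no WT library, as were 48 peaks that were no DAR.

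Promoter peaks were DARs in a smaller share than other peaks, although non-overlap of the genotypes was not rarer there. Among 13357 peaks over a TSS of a protein-coding gene, 563 were lower DARs (4.22%) and 267 higher DARs (2.00%), 6.21% in both directions, and the genotypes did not overlap at 16.2% of them in the lower and 10.4% in the higher direction. Away from a TSS the shares were 13.3% and 10.6% of 158599 peaks, 23.8% in both directions, and non-overlap was found at 10.8% and 9.73%. Shares were close in introns (13.2% and 10.7%), exons (13.4% and 9.48%) and between genes (13.3% and 10.6%). On the autosomes and X the share of lower DARs ran from 10.6% on X to 16.2% on chromosome 16, and of 75 peaks on Y 0 were lower and 12 higher DARs. Of 17786 genes with a tested peak, 7763 had a lower DAR, 7059 a higher DAR and 3801 both.

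The gene encoding the AhR repressor lost accessibility at most of its peaks. Ahrr, an AhR target that competes with AhR for ARNT, had 10 tested peaks on chromosome 13, of which 7 were lower DARs and 0 higher. Its TSS peak (chr13:74291782-74292673) held 9.52 to 13.3 CPM in WT, with a median of 10.6 CPM, and 2.60 to 4.13 CPM in AhR-KO, with a median of 3.23 CPM. The 6 AhR-KO libraries all lay below the 6 WT libraries, and the log2 fold change was −1.73 ± 0.105 (SE; edgeR adjusted p = 6.91e-15). A further 3 intronic peaks within 10 kb of the TSS fell by 2.56 (chr13:74288783-74289981), 2.38 (chr13:74287293-74287483) and 1.29 (chr13:74281969-74283009) on the log2 scale. A large peak at the far end of the gene, with 45.5 ± 2.89 CPM in WT and 30.9 ± 1.19 CPM in AhR-KO (SD, n = 6 each), had an adjusted p of 7.78e-08 but a difference under 1.5-fold. The remaining 2 peaks, 1 in an intron and 1 upstream, were no DARs, with log2 fold changes of −0.03 and −0.25.

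Cyp1b1, which encodes a cytochrome P450 that AhR induces, showed both directions in 16 tested peaks on chromosome 17. Next to the gene, 3 peaks at 0.62, 6.36 and 13.6 kb upstream were lower DARs. The nearest (chr17:79715212-79716150) held 9.61 to 14.7 CPM in WT, median 10.5 CPM, and 5.20 to 6.44 CPM in AhR-KO, median 5.94 CPM, a log2 fold change of −0.96 ± 0.132 (SE). The farthest of the 3 (chr17:79728403-79728827) was faint, at 0.396 to 1.19 CPM in WT and 0.130 to 0.393 CPM in AhR-KO, with a log2 fold change of −1.68. Between 67 and 83 kb upstream, 3 stronger peaks rose, the largest change being 1.402 ± 0.131 on the log2 scale (chr17:79797262-79798824, from 1.99 to 3.14 CPM in WT to 5.90 to 7.61 CPM in AhR-KO). A lower DAR of 0.582 to 2.18 CPM in WT and 0.263 to 0.595 CPM in AhR-KO stood among them.

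Short stretches of mm10 sequence show what the AhR letters look like at these lower DARs. Each line is 81 bases of the plus strand, centred on a match and free of exons, with as many GCGTG matches as any such stretch. Capitals mark GCGTG or its reverse complement CACGC. The whole peaks held 3, 9 and 3 matches in the order shown, and each line shows 2. The first line lies in the Ahrr TSS peak at chr13:74292371-74292451, the other two in the Cyp1b1 peaks at chr17:79715710-79715790 and chr17:79728599-79728679. In the stretch from the Cyp1b1 peak nearest the gene, the marked matches overlap.
Ahrr: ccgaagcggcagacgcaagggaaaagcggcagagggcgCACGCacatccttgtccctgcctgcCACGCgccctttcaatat
Cyp1b1, near peak: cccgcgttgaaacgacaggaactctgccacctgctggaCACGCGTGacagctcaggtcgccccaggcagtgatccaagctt
Cyp1b1, far peak: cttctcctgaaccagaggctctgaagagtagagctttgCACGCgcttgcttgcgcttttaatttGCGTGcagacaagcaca
The same 5 letters occurred in the middle 500 bases of 62.4% of all TSS peaks and 21.2% of all other peaks, so a match in itself is common.

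Over all AhR targets the counts depended on how peaks were assigned to genes. The 12 genes of the list, which include Cyp1a2 with no tested peak, had 101 tested peaks with 14 lower and 12 higher DARs, and a median log2 fold change of 0.05 against −0.02 over all peaks. Among the 73 peaks inside these genes or within 5 kb upstream, 13 were lower and 3 higher DARs. With the nearest TSS, the order of lower and higher turned with the scaling, to 13 and 14 with DESeq2-type size factors. By nearest TSS, 7 of the 14 lower DARs lay at Ahrr. Of the 7 TSS peaks of the list, only that of Ahrr was a DAR. Cyp1a1, Cyp1b1, Aldh3a1 and Il22ra2 had no tested TSS peak. Lpcat2, a lysophospholipid acyltransferase, rose at a peak 5.64 kb upstream that lies in an intron of Mmp2 (chr8:92849356-92850036; 6.47 ± 0.519 to 10.9 ± 0.736 CPM) and fell in an intronic peak from 1.82 ± 0.523 to 0.342 ± 0.131 CPM, a log2 fold change of −2.40. Ugt1a6a, a glucuronosyltransferase, had 3 higher DARs of 11 peaks, with log2 fold changes of 1.11, 1.44 and 0.61, but its reads may be split with its near copies Ugt1a6b and Ugt1a7c, which had 0 DARs. Tiparp had 3 higher DARs and 0 lower of 26 peaks, and its TSS peak held 89.5 ± 2.46 CPM in WT and 91.4 ± 6.64 CPM in AhR-KO. Cyp1a1 had 3 tested peaks and 0 DARs, all under 5 CPM.

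Among promoter peaks of at least 5 CPM in the higher group and without overlap, the largest losses were those of Clnk and Gtf2i. Clnk, an adaptor of immune receptor signalling, held 3.61 to 12.9 CPM at its TSS in WT, median 8.11 CPM, and 0.487 to 0.932 CPM in AhR-KO, median 0.715 CPM. Its log2 fold change was −3.45 ± 0.304 (SE; edgeR adjusted p = 1.64e-09), and the authors' caller found this peak in 6 WT and 0 AhR-KO libraries. At Gtf2i, which encodes a general transcription factor, the TSS peak held 3.84 to 7.73 CPM in WT, median 5.71 CPM, and 0.319 to 0.763 CPM in AhR-KO, median 0.558 CPM. That was a log2 fold change of −3.39 ± 0.22, and it too was called in 6 WT and 0 AhR-KO libraries.

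Kmo, the enzyme that converts kynurenine to 3-hydroxykynurenine, held 11.1 to 24.8 CPM at its TSS in WT, median 19.3 CPM, and 5.30 to 7.59 CPM in AhR-KO, median 5.90 CPM. It fell by 1.59 on the log2 scale (SE 0.195; edgeR adjusted p = 5.36e-07). Itgb2l, an integrin beta chain related to the leukocyte integrin Itgb2, fell from 9.58 ± 2.86 to 1.68 ± 0.235 CPM. The other promoters in this set fell by 1.55 to 2.00 on the log2 scale: the olfactory receptor Olfr420, the calcium sensor Syt9, the actin-binding Synpo2, the Rap effector Radil and the tetraspanin Tspan8.

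The largest promoter gains under the same rule were smaller than the largest losses. The largest gain was at Gm17662, a predicted gene within C8a, which held 2.05 to 5.25 CPM in WT, median 4.41 CPM, and 14.5 to 18.5 CPM in AhR-KO, median 15.96 CPM, a log2 fold change of 1.93 ± 0.157 (SE; edgeR adjusted p = 1.52e-10). Pgap2, which matures the lipid anchor of surface proteins, rose from 5.76 ± 0.667 to 17.3 ± 2.23 CPM, and Wdfy3, a scaffold of selective autophagy, from 2.73 ± 0.408 to 7.83 ± 0.752 CPM. The strongest peak of the set was at Klrb1a, a lectin receptor known from NK cells, with 11.8 to 20.2 CPM in WT and 35.6 to 45.6 CPM in AhR-KO. The others (Olfr961, Olfr736, 4930564D02Rik, Als2cr12, Asb11 and Cd300lg) rose by 1.25 to 1.89 on the log2 scale. Olfr and Klrb1 genes belong to families of similar sequence, so their reads are less certain to be their own. The plot of promoter peaks shows all 12 libraries at each of these genes.

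**Figure D1:**
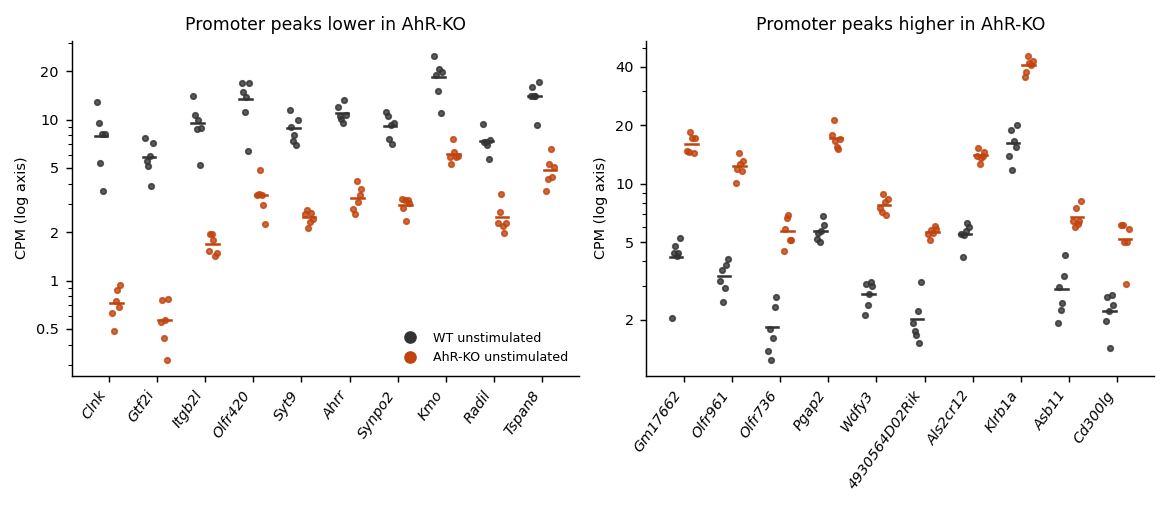
CPM (log axis) of the 10 lower and 10 higher promoter DARs with the largest fold changes outside the Ahr region, among those with a mean of at least 5 CPM in the higher group. Each point is a library, WT in grey and AhR-KO in orange, and the bar is the mean of 6. At Clnk the WT libraries sit between 3.61 and 12.9 CPM and the AhR-KO libraries between 0.487 and 0.932 CPM. Promoters were chosen for genotypes that do not overlap.

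Away from promoters, single sites went from clear peaks to near background. The largest loss among peaks of at least 5 CPM without overlap was 16.8 kb upstream of A430005L14Rik (chr4:153940065-153940770), with 5.24 to 19.02 CPM in WT, median 12.5 CPM, and 0.170 to 0.590 CPM in AhR-KO, median 0.448 CPM. Its log2 fold change was −4.89 ± 0.313 (SE; edgeR adjusted p = 3.61e-12). The peak 57.1 kb upstream of Fam20b, a xylose kinase of proteoglycan assembly (chr1:156775942-156776511), held 4.42 to 10.7 CPM in WT, median 9.18 CPM, and 0.137 to 0.551 CPM in AhR-KO, median 0.392 CPM, a log2 fold change of −4.60 ± 0.217. Both were chosen under a rule that excludes overlap.

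The other 8 peaks of this set had log2 fold changes from −4.84 to −4.25. Nearest genes included Gxylt1, a glycosyltransferase of Notch receptors; the small GTPase gene Rasl11b; Emp1, an epithelial membrane protein; Prima1, which anchors acetylcholinesterase; Tmem121; and Tiam1, an activator of the GTPase Rac. A peak 2.60 kb upstream of Siglech, a lectin of plasmacytoid dendritic cells, fell from 5.01 ± 1.98 to 0.219 ± 0.0635 CPM. All 10 peaks were called in 6 WT and 0 AhR-KO libraries. WT replicate 5 gave the lowest WT value at A430005L14Rik, and why was not tested.

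Gains at single distal sites were at most 5.91-fold under the same rule. The largest was in an intron of the zinc finger gene Zfat (chr15:68222623-68223436), with 0.706 to 1.49 CPM in WT, median 0.902 CPM, and 5.11 to 7.25 CPM in AhR-KO, median 5.83 CPM. It rose by 2.56 ± 0.173 on the log2 scale (edgeR adjusted p = 6.98e-14). The peak 7.09 kb upstream of Fbp1, a gluconeogenic phosphatase, held 0.582 to 1.78 CPM in WT, median 0.987 CPM, and 4.61 to 7.80 CPM in AhR-KO, median 5.44 CPM. Further gains of 4.88- to 5.84-fold lay near Ier5, near Plpp3, which removes phosphate from bioactive lipids, in the shared intron interval of Gss (glutathione synthetase) and Acss2, near Nav1, near the matrix protein gene Sparcl1, inside Nrp2 and near Plxna2, both parts of semaphorin receptors, and inside Svep1.

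The sequences below show letters of lineage factors at some of the peaks named above. They are 81 bases of the mm10 plus strand, and capitals mark the match. Peaks were picked for holding the letters, so the lines do not show how common these are. The A430005L14Rik line also holds TGACTCA, an unmarked match of the AP-1 letters TGANTCA. At lower DARs the marked letters are GAGGAAGT, read by PU.1 (A430005L14Rik at chr4:153940112-153940192 and the Itgb2l promoter at chr16:96443628-96443708), or TGTGGTT and its reverse complement AACCACA, read by RUNX factors (Fam20b at chr1:156776096-156776176 and the Kmo promoter at chr1:175631529-175631609).
A430005L14Rik: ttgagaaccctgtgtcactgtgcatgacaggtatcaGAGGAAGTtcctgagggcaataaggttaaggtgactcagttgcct
Itgb2l: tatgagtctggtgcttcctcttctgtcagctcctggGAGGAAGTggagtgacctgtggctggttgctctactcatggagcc
Fam20b: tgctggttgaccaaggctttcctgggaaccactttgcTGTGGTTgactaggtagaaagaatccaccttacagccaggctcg
Kmo: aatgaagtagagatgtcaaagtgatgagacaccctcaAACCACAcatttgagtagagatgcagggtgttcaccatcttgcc
At higher DARs the marked letters are TTGCNNAA, the C/EBP element, or its reverse complement TTNNGCAA (Fbp1 at chr13:62895322-62895402, Plpp3 at chr4:105339152-105339232 and Sparcl1 at chr5:104124175-104124255).
Fbp1: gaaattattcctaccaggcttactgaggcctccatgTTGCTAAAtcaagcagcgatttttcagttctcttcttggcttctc
Plpp3: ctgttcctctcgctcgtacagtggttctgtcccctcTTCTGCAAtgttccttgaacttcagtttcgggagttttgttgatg
Sparcl1: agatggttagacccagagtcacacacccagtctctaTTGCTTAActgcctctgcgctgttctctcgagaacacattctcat

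Over all peaks away from a TSS the shares of these letters differed between lower and higher DARs, and those of the AhR core were close to each other. Matches were sought on both strands in the middle 500 bases of 158512 peaks, and the shares describe letters, not binding. RUNX letters (TGTGGTT) stood in 23.03% of lower DARs, 15.6% of peaks that were no DAR and 14.4% of higher DARs, and in 28.7% of the losses of at least 8-fold, with 16.4% over all peaks. PU.1 letters (GAGGAAGT) stood in 13.6%, 9.85% and 9.16%, with 10.3% over all. The nuclear receptor letters AGGTCA were also more frequent in lower DARs, at 34.4% against 30.9% and 30.8%.

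AP-1 letters (TGANTCA, a palindrome counted once) ran the other way, with 20.5% of lower DARs, 26.8% of unchanged peaks and 28.8% of higher DARs. C/EBP letters (TTGCNNAA) did likewise, with 20.3%, 24.7% and 28.96%. AhR core letters (GCGTG) stood in 20.8%, 21.3% and 20.6%, and the longer form TTGCGTG, rare in all of them, in 1.28%, 1.22% and 1.05%. IRF letters (GAAANTGAA) stood in 5.09%, 5.18% and 5.22%, and MAF letters (TGCTGAC) in 9.41%, 9.39% and 9.82%. None of these motifs contains another apart from the AhR core in its longer form.

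The share of lower DARs rose with the number of RUNX matches, from 12.2% of peaks with 0 matches to 17.9% with 1, 24.5% with 2 and 27.2% with 3 or more. With AP-1 letters it fell, from 14.3% to 10.9%, 8.19% and 4.46%. For the AhR core it was 13.3%, 13.3%, 12.6% and 10.0%. At promoters AhR core letters stood in 51.2% of lower and 50.2% of higher DARs and in 63.2% of the peaks that were no DAR.

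**Figure D2:**
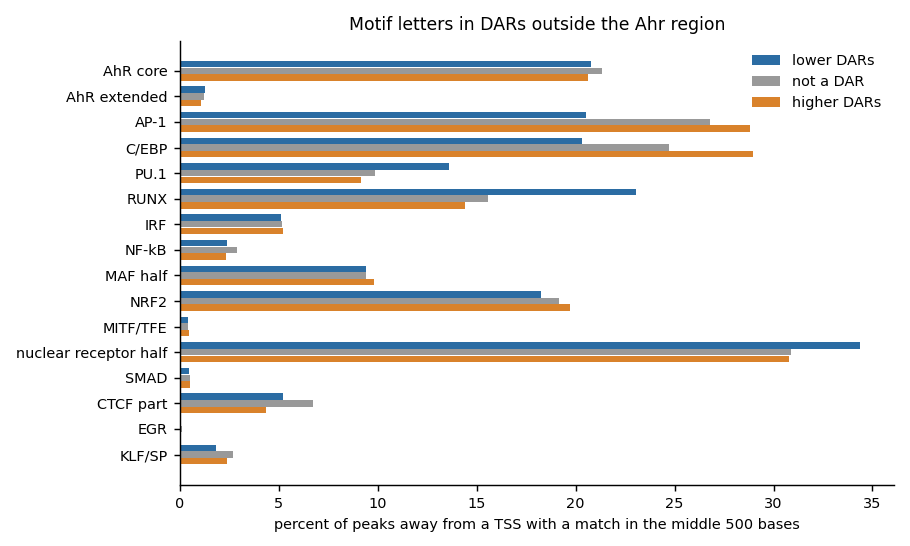
Percent of peaks away from a TSS, outside the Ahr region, whose middle 500 bases hold each motif's letters on either strand; blue bars are lower DARs, grey bars peaks that are no DAR and orange bars higher DARs. RUNX letters reach 23.03% in lower and 14.4% in higher DARs, AP-1 letters 20.5% and 28.8%, and AhR core letters 20.8% and 20.6%.

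Some genes had many DARs over long stretches of chromatin. They are ranked here by number of DARs, which favours genes with many tested peaks. Over all peaks outside the Ahr region, 12.5% were lower and 9.93% higher DARs. With peaks assigned to the nearest TSS, most lower DARs fell to Slco3a1, an organic anion transporter that has been linked to prostaglandin transport, with 35 lower and 7 higher of 109 tested peaks and a median log2 fold change of −0.40. Equally many, 35 lower and 5 higher of 186, fell to Zfp386 on chromosome 12 beyond the Ahr region. Abca13, a lipid transporter, had 33 lower and 1 higher of 93, Rapgef5 29 and 1 of 115, and Rybp, a subunit of Polycomb complexes, 29 and 2 of 73. Foxp1, a forkhead transcription factor, had 26 lower and 2 higher DARs of 106 peaks, Sel1l 26 and 2 of 102, Klf6 25 and 9 of 134, and Arid1b, a chromatin remodeller subunit, 24 and 3 of 110.

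Gains gathered at other genes. Gnaz, a G protein subunit, had 28 higher and 2 lower DARs of 51 peaks with a median log2 fold change of 0.78, and the adhesion protein gene Tns1 had 27 and 3 of 46. Rbms3, an RNA-binding protein, had 22 higher and 0 lower DARs of 34 peaks, and the ephrin receptor Epha4 had 20 and 0 of 44. Sema6d, Runx1, Gm826 and Sulf2 had 20 to 25 higher DARs each, against 2 to 6 lower DARs. Inhba, which encodes the activin A subunit, stood in both sets with 29 lower and 20 higher of 164 peaks. It had many peaks, and its median log2 fold change was −0.04, against −0.02 over all peaks.

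The study's interest lay in eicosanoids, so the genes are taken in the order of the pathway, and each list is read beside the 12.5% lower and 9.93% higher DARs of all peaks. Phospholipases and related enzymes upstream of arachidonic acid had 15 lower and 23 higher DARs of 221 peaks. Of these, Plcb1, a phospholipase C, had 1 lower and 8 higher of 68. The hydrolase genes Mgll and Faah, also on the list, had 2 and 2 of 19 and 1 and 1 of 8. Pla2g4a, the cytosolic phospholipase A2, rose in one peak from 6.27 ± 1.13 to 13.5 ± 1.19 CPM, a log2 fold change of 1.11 ± 0.109, though 9 of its 80 peaks were lower DARs and 4 higher. Pla2g10 was the only TSS call, at 0.846 ± 0.289 and 1.25 ± 0.3004 CPM (edgeR adjusted p = 0.0263), and it was lost at thinned depth and without any of 4 single libraries.

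Prostanoid enzymes had 26 lower and 20 higher DARs of 176 peaks, and most of the lower ones lay at Hpgds and Ptgs1. The order turned to 20 and 23 with DESeq2-type size factors, likewise with DESeq2, loess and GC offsets, and to 13 and 16 among 104 peaks in the genes or within 5 kb upstream. Ptgs1 (cyclooxygenase 1) had 6 lower and 0 higher of 20 peaks, and its TSS peak fell from 39.04 ± 3.36 to 22.6 ± 1.8 CPM. Hpgds, the haematopoietic prostaglandin D synthase, had 11 lower and 0 higher of 20 peaks. One of them (chr6:65158646-65159073) fell from 6.38 ± 1.82 to 0.752 ± 0.102 CPM, a log2 fold change of −3.10 ± 0.189 (edgeR adjusted p = 6.91e-15), and its neighbour at chr6:65154871-65155389 by 1.77 on the log2 scale.

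At the TSS of Hpgds the fall was from 31.1 ± 2.29 to 20.03 ± 1.403 CPM, and at Ptgs2 (cyclooxygenase 2) from 15.8 ± 1.17 to 10.3 ± 0.684 CPM. Both lay close to 1.5-fold and were no longer DARs with DESeq2, DESeq2-type size factors or GC offsets. Tbxas1, thromboxane synthase, had 8 higher and 0 lower of 32 peaks, with 4.19 ± 0.561 and 7.85 ± 0.833 CPM at the one of smallest p. Hpgd, which inactivates prostaglandins, had 7 higher and 1 lower of 18, with a rise from 2.61 ± 0.299 to 6.11 ± 0.354 CPM at the one of smallest p.

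Receptors for prostanoids carried 37 lower and 9 higher DARs of 205 peaks (18.1% and 4.39%), with a median log2 fold change of −0.15. Ptger3, the EP3 receptor of prostaglandin E2, had 13 lower and 0 higher of 37. Its TSS peak (chr3:157566660-157568037) held 16.3 to 22.1 CPM in WT, median 17.98 CPM, and 6.44 to 8.30 CPM in AhR-KO, median 6.63 CPM, a log2 fold change of −1.38 ± 0.106 (edgeR adjusted p = 1.13e-12). The genotypes did not overlap there. Ptger4, the EP4 receptor, had 15 lower and 2 higher of 75. Ptgdr, a prostaglandin D2 receptor, fell at one distal peak from 3.88 ± 0.870 to 0.947 ± 0.214 CPM and rose at another from 7.998 ± 1.03 to 12.6 ± 1.27 CPM, and Ptger2 rose at a weak peak from 0.996 ± 0.155 to 2.17 ± 0.441 CPM. The list kept 32 to 37 lower and 9 to 13 higher DARs under every scaling, with the block and in the 12 libraries alone.

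Leukotriene and lipoxygenase genes had 17 lower and 8 higher DARs of 153 peaks, and 0 of their 14 TSS peaks was a DAR. Alox5, 5-lipoxygenase, had 6 lower and 2 higher of 16 peaks, with a rise at a faint one from 0.455 ± 0.190 to 1.59 ± 0.257 CPM. Its TSS peak fell from a mean of 40.65 to 27.8 CPM (log2 fold change −0.55, edgeR adjusted p = 1.58e-08), but under 1.5-fold. Each receptor of cysteinyl leukotrienes fell at a distal peak. At Cysltr2 the fall was from 4.91 ± 1.04 to 1.28 ± 0.381 CPM. That gene had 2 lower and 1 higher DAR of 25 peaks and a median log2 fold change of 0.05. At Cysltr1 the fall was from 4.07 ± 0.490 to 1.57 ± 0.207 CPM, with 5 lower and 0 higher of 17. Lta4h, the leukotriene B4 enzyme, rose at 1 of 20 peaks, from 5.71 ± 0.617 to 9.99 ± 1.11 CPM.

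Enzymes of tryptophan breakdown, which produce AhR ligands, had 18 lower and 12 higher DARs of 148 peaks. Of their 13 TSS peaks 3 were DARs, each of them lower: besides Kmo, Ido1 (indoleamine dioxygenase) fell from 14.9 ± 2.65 to 6.86 ± 0.776 CPM and the amino acid oxidase gene Il4i1 from 5.72 ± 0.766 to 3.05 ± 0.421 CPM. A stronger TSS peak of Il4i1 was higher in AhR-KO, with means of 36.05 and 47.7 CPM (log2 fold change 0.41, edgeR adjusted p = 2.7e-05), but under 1.5-fold. A distal peak of Kmo fell by 2.61 on the log2 scale and one of Kyat3 by 2.24. Haao, further down the path, had 6 lower and 5 higher of 45 peaks, with a rise of 1.64 on the log2 scale at one of them, in an intron of Mta3, and Qprt rose at 1 of 4.

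Genes of alveolar macrophage identity had more higher than lower DARs. They had 88 higher and 23 lower DARs of 387 peaks (22.7% and 5.94%), a median log2 fold change of 0.26, and 18 to 23 lower and 87 to 105 higher DARs under the scalings tried. Marco, a scavenger receptor, had 16 higher and 1 lower of 28 peaks, Lpl (lipoprotein lipase) 14 and 0 of 23, Mrc1 (the mannose receptor) 10 and 2 of 26, Abcg1 (cholesterol efflux) 7 and 0 of 15, Car4 7 and 0 of 19, Pparg 6 and 1 of 33 and Itgax (CD11c) 5 and 0 of 12. Siglecf, Chil3, Ear2 and Cidec had 0 DARs, of 9, 13, 9 and 3 peaks, and Plet1 had 3 in each direction. Bhlhe40 had 12 lower and 0 higher of 65, and its relative Bhlhe41 had 4 higher and 0 lower of 12.

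At the TSS, Itgax held 15.8 to 18.1 CPM in WT, median 17.2 CPM, and 24.0 to 31.04 CPM in AhR-KO, median 29.5 CPM, a log2 fold change of 0.72 ± 0.0793 (edgeR adjusted p = 3.74e-09). The 6 AhR-KO libraries all lay above the WT libraries. Marco rose from 2.98 ± 0.990 to 5.62 ± 1.12 CPM, Car4 from 6.96 ± 0.411 to 10.6 ± 1.03 CPM and Fabp4 from 1.63 ± 0.354 to 2.47 ± 0.310 CPM. The call at Car4 was lost with loess offsets and without AhR-KO replicate 2, and that at Fabp4 at thinned depth and without any of 4 single libraries. Within the same list, Fabp5 fell at a distal peak from 3.296 ± 1.21 to 0.247 ± 0.0703 CPM and Plet1 from 7.74 ± 1.404 to 3.01 ± 0.109 CPM. The alveolar marker promoters summed above belong to genes of this list, so they are not a second observation.

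Lists of uptake and lipid handling also had more higher than lower DARs, in part at the same peaks. Marco, with its 16 higher DARs, stands also in the scavenger list, Abcg1 in the cholesterol list and Mrc1 among C-type lectins, and Abca1 and Cd36 stand in both the scavenger and the cholesterol list. Scavenger and efferocytosis receptors had 83 higher and 27 lower DARs of 375 peaks, with 9 and 0 of 38 at Msr1, 7 and 1 of 14 at Mertk, 6 and 0 of 10 at Stab2, and 5 and 0 of 6 at Tyro3. The efferocytosis bridge Mfge8 went down, with 4 lower and 0 higher of 12. Cd5l, a secreted scavenger protein, rose at its TSS from 0.234 ± 0.0700 to 0.745 ± 0.190 CPM, both faint. Cholesterol and fatty acid genes had 60 higher and 21 lower of 330, among them the efflux pump Abca1 with 10 and 3 of 49, where one peak rose from 6.05 ± 0.710 to 14.9 ± 1.63 CPM. Scd1 (stearoyl-CoA desaturase) rose at its TSS by 0.59 on the log2 scale, a call lost with loess offsets and without any of 4 single libraries.

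C-type lectin receptors had 24 higher and 8 lower DARs of 126 peaks. Clec10a rose at its TSS from 9.08 ± 0.858 to 17.5 ± 1.58 CPM and Clec4b1 from 21.3 ± 1.45 to 33.1 ± 2.27 CPM, the latter not with loess offsets or at thinned depth. Lysosome genes had 26 higher and 14 lower of 191, with Ctsk, a cathepsin known from osteoclasts, rising at its TSS from 15.01 ± 1.88 to 28.4 ± 4.56 CPM, and Gpnmb with 7 lower and 0 higher of 12. Arginine and itaconate genes had 35 higher and 11 lower of 239; of the higher ones 18 were at Slc7a2, an arginine transporter, 2 of them at its TSS (log2 fold changes 1.11 and 1.05), whereas Nos2 had 0 DARs in 17 peaks. MHC class II genes had 12 higher and 3 lower of 82, yet the chaperone gene H2-DMb2 fell at its TSS from 2.23 ± 0.716 to 0.730 ± 0.237 CPM and a peak of the master regulator Ciita fell from 3.46 ± 1.65 to 0.218 ± 0.0560 CPM.

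**Figure D3:**
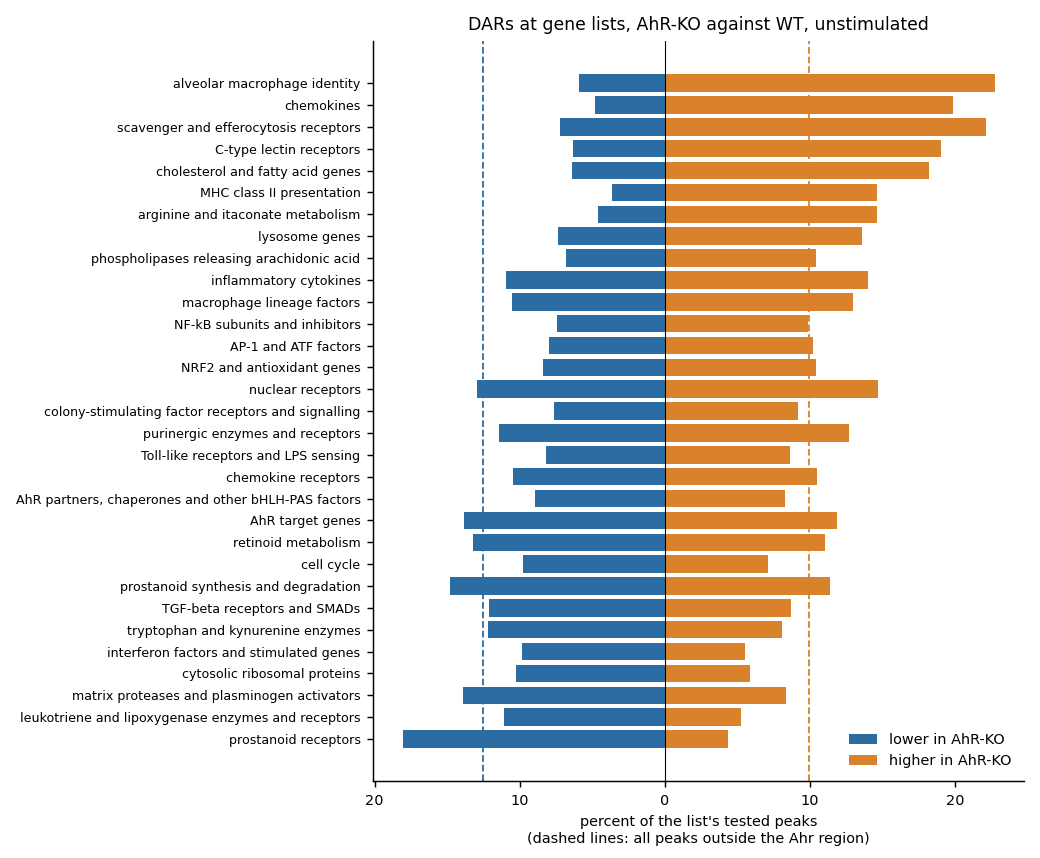
Percent of each gene list's tested peaks, outside the Ahr region, that were lower DARs (blue, to the left) or higher DARs (orange, to the right); dashed lines mark 12.5% and 9.93%, the shares over all peaks. Alveolar macrophage identity (22.7% higher, 5.94% lower) stands at the top and prostanoid receptors (4.39% higher, 18.1% lower) at the bottom.

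Cytokine genes showed single promoters moving in both directions. The list had 55 higher and 43 lower DARs of 393 peaks. At the TSS, Il1a rose from 16.03 ± 1.58 to 25.2 ± 2.79 CPM, while Csf2 (GM-CSF) fell from 1.69 ± 0.552 to 0.862 ± 0.165 CPM. Il12b fell from 21.4 ± 2.08 to 13.8 ± 0.857 CPM and Il6 rose from 7.85 ± 0.354 to 12.2 ± 0.726 CPM. Il1b rose from 2.74 ± 0.688 to 4.32 ± 0.508 CPM. The Il12b call was lost with DESeq2, DESeq2-type size factors or GC offsets and the Il6 call with loess offsets. Il10 had 5 lower and 0 higher of 24 peaks and Il12a 5 and 0 of 21, against 7 higher and 0 lower of 20 at Il33 and 8 and 1 of 39 at Il15. Distal peaks rose from 12.2 ± 1.68 to 24.8 ± 2.23 CPM at Csf1 and from 3.17 ± 0.9998 to 10.4 ± 1.39 CPM at Il18.

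Chemokine genes had 37 higher and 9 lower DARs of 186 peaks, with 6 to 9 lower and 37 to 41 higher under the scalings tried. Ccl22 rose at its TSS from 3.84 ± 0.445 to 6.78 ± 0.644 CPM and Ccl17 from 11.5 ± 2.72 to 19.6 ± 3.37 CPM, both ligands of Ccr4. Ccl6 had 8 higher and 0 lower of 13, and Cxcl12 had 7 and 1 of 28, with one peak rising from 6.71 ± 0.953 to 16.8 ± 1.09 CPM. Cxcl2, which attracts neutrophils, fell at its TSS from 36.3 ± 4.06 to 23.4 ± 1.61 CPM (not with DESeq2 or GC offsets), and its receptor Cxcr2 fell from 4.93 ± 0.573 to 2.73 ± 0.255 CPM. Cxcr4 had 11 lower and 3 higher of 55 peaks, and Ccr6 5 and 0 of 12. Neutrophil markers in the cell type list had 14 lower and 1 higher DAR of 52 peaks, with 6 of the lower ones at Retnlg. Ly6g, Mpo, Elane and Camp had 0 DARs. Of the lower ones, 2 lay at a TSS (S100a9 and Ltf). Those 2 promoters were faint, with WT and AhR-KO means of 3.13 and 1.195 CPM at S100a9 and 2.21 and 1.16 CPM at Ltf. The stronger promoters of the list held 20.2 and 24.0 CPM at S100a8 and 13.9 and 12.2 CPM at Camp. Whether neutrophil number took part was not tested.

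Among signalling lists the counts stood nearer the background. Toll-like receptor genes had 37 lower and 39 higher DARs of 452 peaks. The MD-1 gene Ly86 rose at a TSS peak from 5.18 ± 0.646 to 8.75 ± 0.684 CPM, and Tlr4 had 15 higher and 1 lower of 101. Its partner Ly96 (MD-2) had 5 lower and 1 higher of 24, and Lbp fell at its TSS from 5.91 ± 0.904 to 3.96 ± 0.608 CPM, a call lost under 12 of 20 other settings. NF-κB genes had 18 lower and 24 higher of 243, 13 of the higher ones at the inhibitor Tnfaip3 (0 lower of 58), which rose at its TSS from 2.88 ± 0.390 to 4.68 ± 0.601 CPM. A peak of Nfkb1 rose by 1.37 ± 0.0956 on the log2 scale.

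Interferon genes had 23 lower and 13 higher DARs of 234 peaks, among them 5 lower and 0 higher of 9 at Oasl2, whose TSS peak fell from 8.70 ± 1.65 to 5.22 ± 1.05 CPM. AP-1 and ATF genes had 18 lower and 23 higher of 226, with 9 higher and 1 lower of 32 at the stress factor Atf3. TGF-β genes had 64 lower and 46 higher of 527 (57 and 60 with DESeq2), with 11 lower and 1 higher of 64 at the inhibitor Smad7, 9 higher and 0 lower of 27 at the receptor Tgfbr1 and 11 of each at Tgfbr2. Genes of colony-stimulating factor signalling had 15 lower and 18 higher of 196, with Stat5a rising by 0.59 at its TSS, a call lost with loess offsets and without any of 5 single libraries.

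Lineage factor genes held 130 lower and 161 higher DARs of 1238 peaks. Runx1 had 23 higher and 6 lower of 127, Mitf 13 and 1 of 87, Cebpb 11 and 0 of 38, Klf4 15 and 6 of 95 and Egr2 8 and 0 of 24. Lower DARs prevailed at Klf6, at Maf (19 lower, 7 higher of 107) and at Runx3 (7 and 3 of 34), although one Runx3 peak rose from 19.1 ± 1.17 to 34.5 ± 3.45 CPM. Distal peaks of Bach2 and Cebpe fell by 4.08 and 2.68 on the log2 scale. Cebpb rose at its TSS from 49.2 ± 4.81 to 74.0 ± 16.4 CPM, with overlap between the genotypes and the call lost under 8 of 20 other settings.

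Nuclear receptor genes had 51 lower and 58 higher DARs of 394 peaks. Rarg, a retinoic acid receptor, rose at its TSS from 25.7 ± 1.56 to 39.9 ± 5.69 CPM, a call lost without AhR-KO replicate 2, while Rarb had 14 lower and 8 higher of 43. Retinoid metabolism genes had 30 lower and 25 higher of 227, an order that turned with the scaling. Of the enzymes that clear retinoic acid, Cyp26a1 fell at its TSS from 6.78 ± 0.982 to 3.78 ± 0.568 CPM and had 5 lower and 1 higher of 14 peaks, and Cyp26b1 had 14 higher and 3 lower of 58, with a rise from 2.21 ± 0.876 to 9.30 ± 0.980 CPM at one of them. Aldh1a3, which makes retinoic acid, fell at a distal peak by 3.48 on the log2 scale.

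Other lists were measured beside these. Matrix protease genes had 35 lower and 21 higher DARs of 252 peaks, with a TSS loss at Mmp2 (3.16 ± 0.377 to 1.94 ± 0.316 CPM) and distal losses of 2.85 at Mmp2 and 3.02 at Mmp13 on the log2 scale. Purinergic genes had 26 lower and 29 higher of 228: at the TSS P2rx1 fell from 4.02 ± 1.09 to 1.32 ± 0.354 CPM and P2ry12 from 4.66 ± 0.376 to 3.05 ± 0.847 CPM, and P2ry2 rose from 1.86 ± 0.332 to 3.297 ± 0.707 CPM and Adora2a from 14.1 ± 1.95 to 21.1 ± 2.48 CPM, the calls at P2ry12 and Adora2a being lost in some settings. Antioxidant genes had 25 lower and 31 higher of 297, bHLH-PAS partners of AhR 28 and 26 of 314 (23 and 34 with DESeq2-type size factors) with a TSS loss at Hif3a (7.35 ± 0.789 to 4.80 ± 0.602 CPM, not with DESeq2 or at thinned depth), and chemokine receptors 26 and 26 of 248. The AP-1 factor Batf2 rose at its TSS from 2.48 ± 0.696 to 4.38 ± 0.606 CPM. Cell cycle genes had 48 lower and 35 higher of 492 and ribosomal protein genes 28 and 16 of 274, with 0 DARs in the 29 and 46 TSS peaks of these lists. With DESeq2-type size factors these counts were 39 and 44 for the cell cycle and 23 and 22 for ribosomal proteins, and the latter had 1 lower and 6 higher DARs of 88 peaks in the genes or within 5 kb upstream.

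In some cell type marker lists most lower DARs lay at 1 gene. Mast cell and basophil markers had 28 lower and 5 higher DARs of 93 peaks, 19 of the lower ones at Kit, the receptor of stem cell factor, whose TSS peak went from 11.1 to 4.79 CPM (means of 6). Dendritic cell markers had 17 lower and 12 higher of 86, and their promoters went both ways. TSS means fell from 9.07 to 4.09 CPM at Flt3, from 9.08 to 5.35 CPM at Dpp4 and from 0.940 to 0.551 CPM at Ccr7. They rose from 15.06 to 20.2 CPM at Batf3 and, over 2 TSS peaks, from 22.44 to 26.55 CPM at Zbtb46. B cell markers had 16 lower and 4 higher of 83, 9 of the lower ones at Ebf1. Markers of general macrophages had 9 lower and 18 higher of 94, and stromal markers 11 and 18 of 123.

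The losses of at least 8-fold were followed through all 24 libraries, including the LPS libraries, which entered their choice through the low-count filter, the scaling and the shared estimate of spread but not through the fold change. These 738 peaks lay nearest to 648 genes, with 7 at Clnk and 4 each at Dap, Gfra2, Samd4 and Tmem121, and 393 of them were intronic, 309 intergenic, 30 exonic and 6 at a TSS. Their summed level was 3260, 2575, 1864, 2462, 1207 and 2974 CPM in WT unstimulated replicates 1 to 6, lowest in the shallow replicate 5. In AhR-KO it was 194 to 240 CPM, below every WT library by the choice of the peaks. With LPS the sum was 687 to 1537 CPM in WT and 191 to 318 CPM in AhR-KO, again without overlap. In those LPS libraries 643 of the 738 were lower DARs against 13.02% of all peaks, with a median log2 fold change of −1.88.

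Of the 176 peaks that rose at least 4-fold, the summed level was 86.6 to 137 CPM in WT and 440 to 564 CPM in AhR-KO. In the LPS libraries it was 207 to 282 CPM in WT and 523 to 617 CPM in AhR-KO. There 154 of the 176 were higher DARs, against 13.4% of all peaks.

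**Figure D4:**
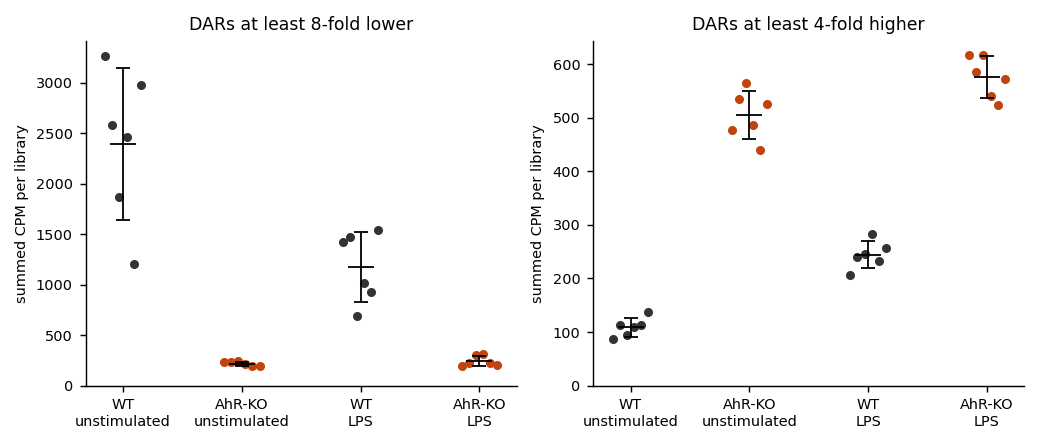
Summed CPM per library of the 738 DARs at least 8-fold lower (left) and the 176 DARs at least 4-fold higher (right) in unstimulated AhR-KO, outside the Ahr region; points are libraries, bars the mean ± SD of 6. The unstimulated groups are apart because they chose the peaks; in the LPS libraries WT sits at 687 to 1537 CPM and AhR-KO at 191 to 318 CPM on the left, and at 207 to 282 CPM and 523 to 617 CPM on the right.

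The Ahr region was described apart. It held 2237 tested peaks, with 435 lower (19.4%) and 265 higher DARs (11.8%), 31.3% in both directions, and a median log2 fold change of −0.11. The genotypes did not overlap at 16.5% of its peaks in the lower and 9.75% in the higher direction. Within 1 Mb of the Ahr TSS 28.03% of 264 peaks were lower and 14.4% higher DARs, within 5 Mb 22.2% and 13.6% of 877, and within 20 Mb 19.5% and 11.8%. The highest shares of lower DARs were found at 6 to 8 Mb below the gene in coordinate (41.3%) and at 4 to 6 Mb (37.8%). A step beyond the region, 52 to 54 Mb above Ahr, reached 35.3%.

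**Figure D5:**
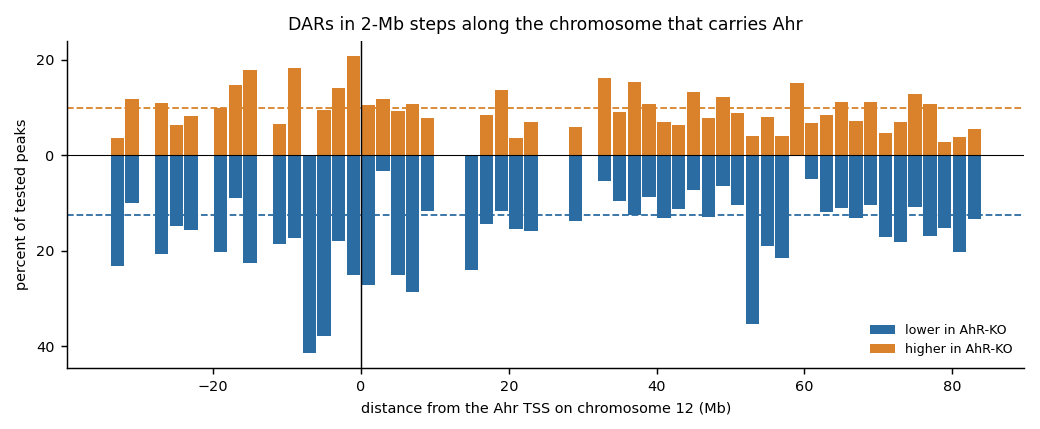
Percent of tested peaks that were higher (orange, upward) or lower DARs (blue, downward) in 2-Mb steps along the chromosome that carries Ahr, by distance from its TSS; steps with under 20 peaks are left out, and dashed lines mark 9.93% and 12.5% for the genome outside the Ahr region. Lower DARs reach 41.3% below the gene in coordinate.

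Ahr itself stayed accessible at its promoter. The TSS peak (chr12:35534070-35535364) held 20.2 to 24.6 CPM in WT, median 22.3 CPM, and 11.6 to 15.1 CPM in AhR-KO, median 13.2 CPM, a lower DAR with a log2 fold change of −0.78 ± 0.0765 (edgeR adjusted p = 2.98e-10). A peak over an exon (chr12:35513939-35516182) rose, from 1.19 to 1.98 CPM in WT to 4.64 to 7.50 CPM in AhR-KO, and one in an intron (chr12:35518178-35519384) fell from 1.75 to 2.92 CPM to 0.263 to 0.521 CPM. Which of these peaks lie in the disrupted part of the gene is not given in the sources used here, so they do not check the genotype.

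Under the rule for naming peaks (at least 5 CPM, no overlap), the largest changes of the comparison lay in this region. A peak 54.5 kb downstream of the Ahr TSS (chr12:35479981-35481193) held 3.72 to 6.97 CPM in WT, median 5.44 CPM, and 0 to 0.228 CPM in AhR-KO, median 0.0863 CPM, a log2 fold change of −5.79 ± 0.277 (edgeR adjusted p = 2.04e-17). In an intron of Sntg2 (chr12:30282350-30282918) a peak of 0 to 0.330 CPM in WT held 9.21 to 15.98 CPM in AhR-KO, a log2 fold change of 5.88 ± 0.210. A peak 14.5 kb upstream of Agr2 (chr12:35978156-35978656) went from 0.132 to 0.322 CPM to 6.17 to 9.07 CPM, and one in an intron of Cog5 near Gpr22 from 0.138 to 0.349 CPM to 5.19 to 6.996 CPM. All 3 gains were called in 0 WT and 6 AhR-KO libraries, and no higher DAR outside the region rose as much under the same rule, where the limit was 5.91-fold.

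Further losses there were at Prkar2b, a regulatory subunit of protein kinase A (12.7 ± 0.8002 to 0.606 ± 0.112 CPM), near Ccdc71l (8.66 ± 1.58 to 0.469 ± 0.160 CPM), in an intron of Cdhr3, and in introns of Immp2l and Dock4. Gains of 4.63- and 4.50-fold lay in an intron of Hdac9, a histone deacetylase, and 457 kb from Id2, an inhibitor of bHLH factors. In the region, loss of AhR and DNA sequence linked to the allele cannot be told apart with these counts.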

How the data were processed

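ATAC-seq was measured in 24 libraries, 12 of them used for the comparison here. Per the file headers, featureCounts 2.0.1 gave the deposited table of raw counts of read pairs in consensus peaks, with a pair counted in every peak that held a fraction of at least 0.2 of it. The authors had trimmed, aligned and filtered the reads of each library on mm10 with the nf-core atacseq pipeline, called broad peaks per library with MACS2 and merged them; bcl2fastq 2.20.0 stands in the submitters' processing notes. The deposited per-library peak lists hold a signal as fold enrichment and a −log10 q-value, of which only presence or absence of a call was used. No count column was left out (0 not used).

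The test was the quasi-likelihood F-test of edgeR 4.0.16 (R 4.3.3), with filterByExpr by group, TMM scaling and a robust fit of all 24 libraries whose only term was the group. Benjamini-Hochberg adjustment covered the 174193 peaks tested. DARs had an adjusted p of at most 0.05 and at least 1.5-fold change, as in the study's methods. Standard errors are the log2 fold change over the root of the F value. On counts simulated for the unstimulated libraries, with a single fixed spread and few changed peaks, the procedure recovered most of the largest planted changes. These settings differ from the data, so recovery in the data itself is not known. Libraries were grouped by their labels; with animals as replicates of 1 experiment, p-values measure the spread between these cultures.

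Each peak was given to the nearest TSS of a protein-coding gene in GRCm38, the assembly of mm10, whose sequence was used. Named peaks outside the Ahr region were the 10 lower and 10 higher DARs of largest fold change with a mean of at least 5 CPM, all 6 libraries of a genotype beyond the other and 1 peak per gene, the same for TSS peaks, and 6 each in the region; the 10 genes with most lower and most higher DARs; and, per gene list, TSS DARs and the 2 lower and 2 higher DARs of smallest p. Gene lists, markers and members were chosen with earlier results of these data known, so they are no independent support. Results at a few of these genes are not reported here. Values are rounded to 3 digits, a few to 4. Intervals cover spread between libraries; WT replicate 5, with 8.54 M counts, is the least precise. Alternatives were other scalings (DESeq2 1.42.0, loess and GC offsets), filters, thresholds, equal depth, fewer libraries and a replicate block.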

Additional observations from a re-analysis of the deposited data

Results flagged for a closer look

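Among 112 sets of 6 libraries checked with Dixon's test at its 95% level, 5 held a library far from the other 5, about the number that chance gives at this level. They were an AhR-KO library at the Prima1 peak (0.571 CPM, the highest of its group), a WT library at the Nrp2 peak (3.42 CPM, highest) and 1 at the Gm17662 promoter (2.05 CPM, lowest), an AhR-KO library at the Cd300lg promoter (3.04 CPM, lowest) and WT replicate 6 in its share of counts on chromosome Y (0.0118%, against 0.0226 to 0.0275% in every other library). The count does not tell which of the 5 stood apart by chance. The reason for the low Y share was not tested.

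At 27 of 52 named peaks the genotype effect with LPS differed at least 1.5-fold from that without it. The test was the interaction term of edgeR, with an adjusted p of at most 0.05 over all tested peaks. The peaks were chosen for a large effect without LPS, so a smaller effect with LPS is in part fixed by the choice. The values of 26 of these 27 peaks follow. Among lower DARs outside the Ahr region, the effect with LPS minus that without, on the log2 scale, was 3.21 at A430005L14Rik, 3.004 at Rasl11b, 2.78 at Tmem121, 2.40 at Gxylt1, 1.95 at Prima1, 1.87 at Siglech, 1.715 at Tiam1, 1.36 at Fam20b and 1.07 at the Gtf2i promoter. At A430005L14Rik the level in WT was 11.8 ± 4.91 CPM without and 1.39 ± 0.260 CPM with LPS, and in AhR-KO 0.400 ± 0.155 and 0.440 ± 0.265 CPM. Among higher DARs it was −2.19 at Ier5, −2.12 at Svep1, −1.43 at Gss, −1.29 at Fbp1, −1.21 at Nav1, −1.14 at Zfat, −1.13 at Nrp2, −1.02 at Plpp3, −0.72 at the Asb11 promoter and −0.65 at the Wdfy3 promoter. In the Ahr region it was 2.59 near Ccdc71l, 1.86 at the peak nearest Immp2l, 1.397 at Prkar2b, −2.79 at Sntg2, −1.74 near Prps1l1 and −0.70 near Id2. The exon peak of Ahr went the other way, since its gain in AhR-KO was 0.74 larger with LPS. Under 1.5-fold, the same adjusted p was also reached at 2 promoters. The loss at Ahrr was 0.55 larger with LPS (edgeR adjusted p = 0.011). The gain at Pgap2 was 0.45 smaller (edgeR adjusted p = 0.0246).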

How the results depend on the processing

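The 38647 DARs outside the Ahr region stayed within 1.5 times of that number under other scalings, filters, library sets, equal depth (27298) and without any single library, and fell to 17027 at a 2-fold threshold and 16027 when at least 1.5-fold was tested itself (glmTreat). In the Ahr region the 700 DARs became 366 and 354 under these 2 thresholds and 445 when only 10 Mb on each side were taken. The lower share of DARs outside the region, 55.84%, was 67.05% and 65.69% at those thresholds and 54.03% in the 12 libraries alone. In those 12 libraries it was 53.97% with a term for sets of title numbers (17 to 20, 25 to 28 and 33 to 36). At equal depth the lower share was 52.52%, and 54.08% with TMM from TSS peaks, an alternative chosen after seeing the data. It reversed, to under 50%, with DESeq2 (48.49%), DESeq2-type size factors (48.21%), loess offsets (48.04%) and GC offsets (49.37%); the median of all peaks moved from −0.02 to 0.04 at most, and the cause was not tested. Without single libraries it ran from 52.91% (without WT replicate 6) to 56.83% (without AhR-KO replicate 3). The 619 list genes had 1917 DARs by nearest TSS and 885 when peaks had to lie in the gene or within 5 kb upstream.

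Same-numbered libraries did not deviate together: the correlation of their deviations was −0.132 to 0.067 over 6 pairs. A WT library was closest to its own number in 2 of them. The closest AhR-KO libraries to WT replicates 1 to 6 were replicates 2, 2, 4, 3, 5 and 3. Whether libraries with neighbouring title numbers share a batch was not tested. With a replicate block the 12 libraries gave 37090 DARs outside the region, of which 53.58% were lower, against 37159 without it.

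Across 195 named peaks and up to 20 other settings each, 3711 values stayed called in the same direction or stayed uncalled. Another 103 lost the call and 38 gained one. These settings were the other scalings, equal depth, the 12 libraries alone, the replicate block and single libraries left out. The other thresholds, the unfiltered fit and the term for title numbers were not among them. Peaks named only for the smallest p in a gene list were left out, as was the Ahr promoter. No call changed sign (0 values); some values that were not called did.

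Depth limits faint peaks: in WT replicate 5, with 8.54 M counts, a level under 1 CPM rests on few counts.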
